A study of Homo sapiens with 6 samples.

Results

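The genes of the NF-kB transcription factor and of the proteins that hold it back or are made in response to it were examined in SUM159 cells that carried SH3GL2. The list holds 10 genes, namely the subunit genes NFKB1, NFKB2, RELA, RELB and REL, the inhibitor genes NFKBIA and NFKBIE, and the feedback and target genes TNFAIP3, BIRC3 and TNFAIP2. Members were taken as every probe set whose platform annotation gives one of these symbols, which found 15 of 22215 probe sets for 9 of the 10 genes. No probe set carried BIRC3 in the annotation used, and that gene was not analysed here. SUM159, also written SUM-159, is a human triple-negative breast cancer cell line, and SH3GL2 encodes endophilin A1, a membrane-bending protein of endocytosis. The SH3GL2 group was SUM159 stably transfected with an SH3GL2 insert in the pcDNA 3.1 vector, and its control was SUM159 stably transfected with the empty vector. Per the methods the insert was the wild-type form and the stable clones were kept under G418, a drug that kills cells without the vector. Total RNA of each group was hybridized to 3 Affymetrix GeneChip human genome arrays, which read each transcript with 1 or more probe sets. Neither the labels nor the methods say whether the 3 arrays of a group came from separate cultures or how many clones each line holds, so p-values measure only the spread between these arrays, which may be technical.

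NF-kB is a family of dimeric transcription factors that rest in the cytoplasm, bound by the IkB inhibitor proteins. Signals from receptors such as those for tumor necrosis factor, interleukin 1 and microbial products activate the IkB kinase, which marks IkB for destruction and lets the dimers enter the nucleus, where they induce cytokine, adhesion and survival genes. The same dimers also induce several of their own inhibitors and some of their own subunits, and NF-kB activity is a known feature of many basal-like and triple-negative breast cancer cells.

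The 3 members that passed the test described below were NFKBIA, TNFAIP3 and TNFAIP2, and the 250 bases before their RefSeq start sites (GRCh38.p14) are shown because NF-kB is known to act through kappa-B sites near the start of such genes. The windows are chr14:35404750-35404999 on the minus strand for NFKBIA, chr6:137867009-137867258 on the plus strand for TNFAIP3 and chr14:103123211-103123460 on the plus strand for TNFAIP2. Each is written 5′ to 3′ along its gene, with matches to the kappa-B consensus on either strand in capitals.
NFKBIA: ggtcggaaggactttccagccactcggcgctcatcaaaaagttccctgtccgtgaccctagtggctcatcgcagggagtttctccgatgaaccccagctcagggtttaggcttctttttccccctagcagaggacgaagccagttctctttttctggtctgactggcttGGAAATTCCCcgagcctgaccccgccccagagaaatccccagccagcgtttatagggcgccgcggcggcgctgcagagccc
TNFAIP3: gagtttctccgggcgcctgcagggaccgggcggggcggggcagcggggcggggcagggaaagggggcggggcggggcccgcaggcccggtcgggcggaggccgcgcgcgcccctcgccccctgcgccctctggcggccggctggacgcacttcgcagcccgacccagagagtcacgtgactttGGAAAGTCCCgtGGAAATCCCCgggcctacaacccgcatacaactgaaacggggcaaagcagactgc
TNFAIP2: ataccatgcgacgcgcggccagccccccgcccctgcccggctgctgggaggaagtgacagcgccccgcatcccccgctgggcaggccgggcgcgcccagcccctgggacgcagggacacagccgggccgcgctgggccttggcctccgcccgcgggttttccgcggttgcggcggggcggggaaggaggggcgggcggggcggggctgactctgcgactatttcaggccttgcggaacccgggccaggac
The NFKBIA window held 1 match, which began 81 bases before the start site, and the TNFAIP3 window held 2, which began 67 and 55 bases before it. The TNFAIP2 window held 0 matches, which says only that these letters are not in this window.

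Of the 6 matches upstream of the subunit genes, 4 are shown in the same way, each with 10 bases on either side, because the subunits include genes that NF-kB is known to induce. They lie at chr4:102501310-102501319 for NFKB1, at chr10:102394500-102394509 and chr10:102395684-102395693 for NFKB2, and at chr2:60881527-60881537 for REL, all on the plus strand of GRCh38.p14. The windows of NFKB2 held 4 matches in all, 2 in each of 2 windows, and the one nearer the start site is shown for each. The others lie at chr10:102394471-102394481 and chr10:102395529-102395538.
NFKB1: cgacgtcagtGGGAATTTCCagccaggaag
NFKB2: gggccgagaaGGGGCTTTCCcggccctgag
NFKB2: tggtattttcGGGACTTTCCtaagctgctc
REL: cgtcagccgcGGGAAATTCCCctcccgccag
The capitals of REL span 11 bases because matches on both strands overlap there. The 2 windows of RELA held 0 matches. The table of promoter sequences matched 8 of the 10 listed genes, BIRC3 among them and RELB and NFKBIE not, and 6 of the 8 (75%) held a match, as did 6.28% of the 27305 genes in the table. Among 38 other NF-kB target genes with a window, 18 (47.4%) held one. Some genes have several windows, and counted by window 7 of 12 member windows (58.3%) and 5.21% of all 35116 windows held a match. Both lists hold genes chosen for their known ties to NF-kB, so these shares are only a description. A match is a run of letters and was not tested as a binding site.

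The deposited values were log2 signals that ran from 2.82 to 15.31, with array medians of 6.97 to 7.02. Arrays of the same group correlated at r = 0.9971 to 0.9982 over probe sets, and arrays of different groups at 0.9947 to 0.9965, over features that are not replicates. To judge which signals stood above those of absent transcripts, 70 probe sets of 44 genes of other organs served as a reference. The reference median was 4.70 log2 units and the reference 95th percentile was 7.05. SH3GL2 had log2 signals of 3.15, 3.33 and 3.29 on the SH3GL2 arrays and of 3.24, 3.18 and 3.25 on the empty vector arrays, below the reference median in both groups, so its probe set gave no check of the labels. NF-kB genes are high in leukocytes. None of 11 measured leukocyte markers exceeded the reference 95th percentile in either group, and PTPRC, which all leukocytes carry, had means of 4.17 in SH3GL2 cells and 4.15 in empty vector cells. The summed leukocyte marker signal was 8.86 to 8.92 log2 units over the SH3GL2 arrays and 8.83 to 8.94 over the empty vector arrays. The endothelial markers, 6 of 6 measured, also lay below the 95th percentile, with summed signals of 8.13 to 8.22 over the SH3GL2 arrays and 8.09 to 8.30 over the empty vector arrays. Of 5 luminal and hormone receptor markers, 2 lay above the reference 95th percentile and 0 passed the test. GATA3, a luminal factor gene, had means of 9.27 in SH3GL2 cells and 9.57 in empty vector cells, and ERBB2, the HER2 gene, had 8.45 in SH3GL2 cells and 8.50 in empty vector cells. ESR1 and PGR, the hormone receptor genes that triple-negative tumors lack, lay below that percentile in both groups, as did FOXA1. VIM, encoding vimentin, marks mesenchymal breast cancer cells and had means of 14.58 in SH3GL2 cells and 14.68 in empty vector cells. The list for the mesenchymal line held 7 genes, all above the reference 95th percentile. It also holds the keratin genes KRT8 and KRT18 and the proliferation gene MKI67. Of the 7, 0 were higher and 3 (CAV1, MKI67 and ZEB1) were lower in SH3GL2 cells. MKI67 was lower on 1 of its 4 probe sets, CAV1 on 2 of 2 and ZEB1 on 3 of 3. The log2 fold change was negative for 6 of the 7 and positive for KRT18. Summed signals of the 7 were 15.35 to 15.40 over the SH3GL2 arrays and 15.50 to 15.52 over the empty vector arrays. The part of these markers in the results below was not tested.

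In SH3GL2 cells NFKBIA, TNFAIP3 and TNFAIP2 were higher, by 1.19-fold to 1.40-fold. The inhibitor gene NFKBIE and the subunit genes did not pass the test. Passing did not follow the size of the change. At the probe set with the highest mean, RELA, NFKB1 and RELB each had a log2 fold change of 0.29, above the 0.26 of NFKBIA. NFKB2, REL and NFKBIE had 0.08, 0.19 and 0.16, below it. A difference between the roles was not tested. A probe set passed at an adjusted p under 0.05 in limma, adjusted by Benjamini-Hochberg over all 22215 probe sets. Of the 15 member probe sets 4 were higher and 0 were lower in SH3GL2 cells, while 1.99% of all probe sets were higher and 2.18% were lower. The 2 groups did not overlap on 5 member probe sets, all with SH3GL2 above, and the same held for 10.5% of all probe sets, with 8.97% separated the other way. The log2 fold change of SH3GL2 over empty vector was positive on 14 of the 15 member probe sets, with a median of 0.26, and the median over all probe sets was 0.01. Taken at the probe set with the highest mean of each gene, 3 of 9 members were higher, 0 were lower and 6 did not pass, and the same rule called 2.54% of 11963 genes higher and 2.36% lower. At an unadjusted p under 0.05, 6 of the 9 were higher and 0 were lower, while 9.94% of the 11963 genes were higher and 7.56% were lower by that rule. Tested gene by gene with a plain analysis of variance, 0 passed in either direction, and 0.167% of all genes were higher and 0.234% lower. The members were chosen with earlier results of these data known, so the counts beside the shares of all probe sets and genes are only a description. In bulk RNA, more cells with a transcript and more transcript per cell cannot be told apart.

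**Figure D1:**
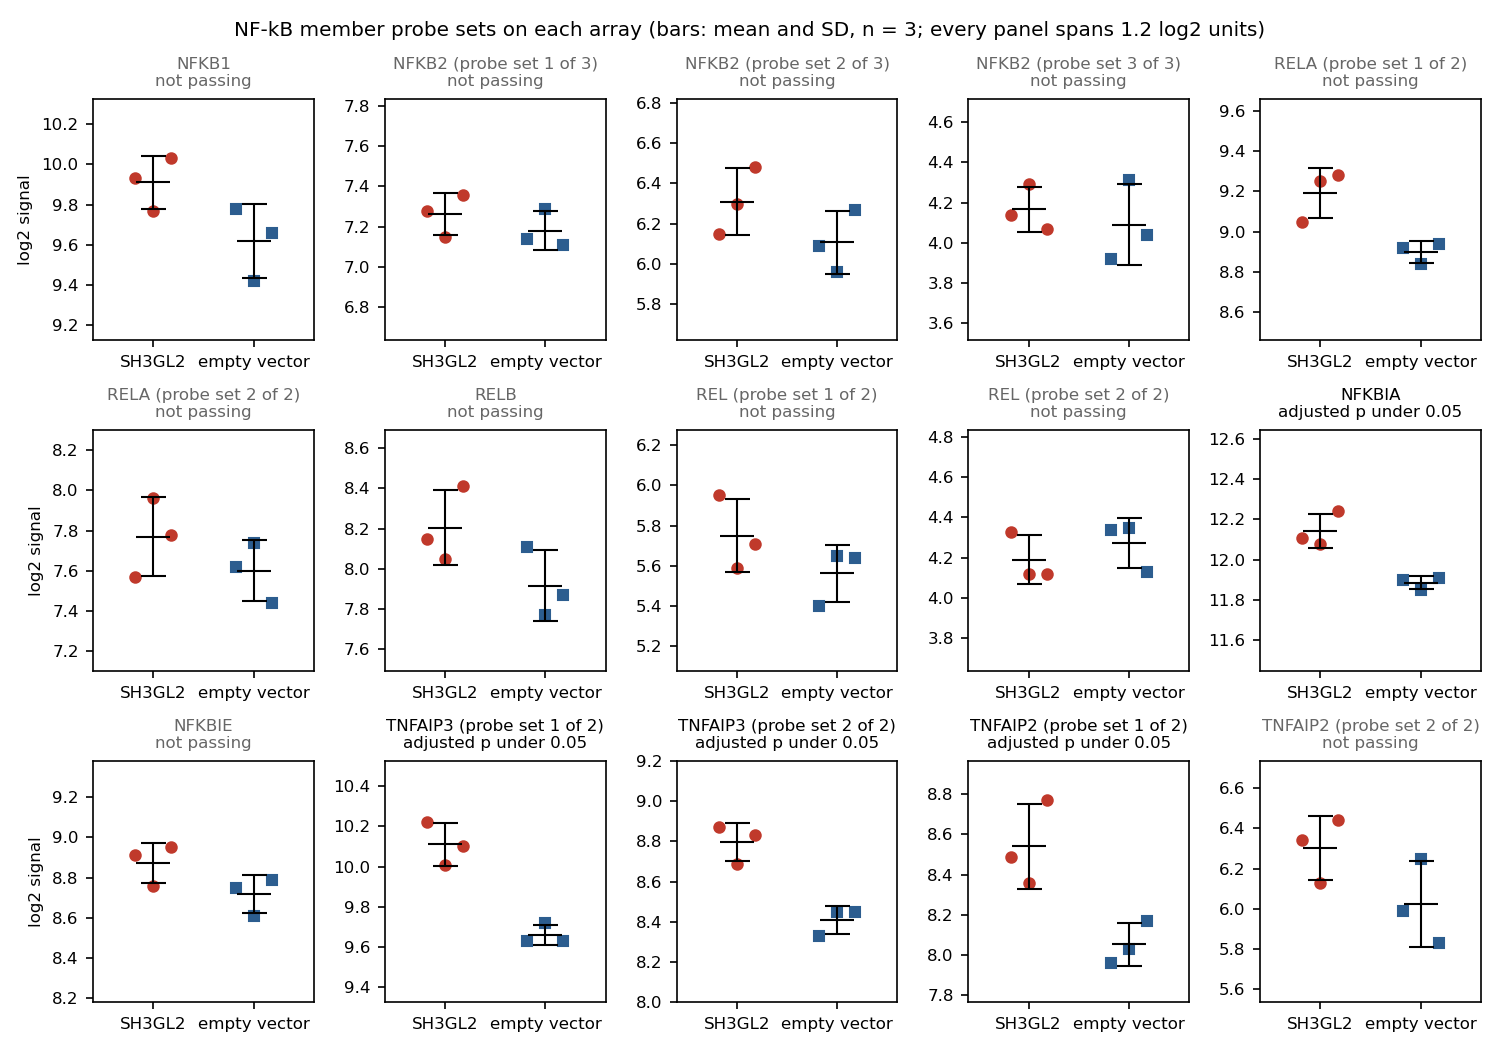
Log2 signal of each of the 15 member probe sets on the 3 SH3GL2 arrays (circles, left) and the 3 empty vector arrays (squares, right), with mean and SD. Each panel spans 1.2 log2 units and has its own centre. The groups are apart in the panels of NFKBIA, of both TNFAIP3 probe sets, of the first TNFAIP2 and the first RELA probe set, and overlap in the other 10.

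The plot of signals by array shows every value given below, and the vertical distance between the groups can be compared between its panels since all have the same span. The 5 separated panels all have the SH3GL2 points on top.

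None of the 5 subunit genes passed the test. RELA encodes p65, the subunit that carries the main transactivation domain of the classical dimer. Its first probe set (201783_s_at) had log2 signals of 9.05, 9.25 and 9.28 in SH3GL2 cells and 8.92, 8.84 and 8.94 in empty vector cells. All 3 SH3GL2 arrays lay above all 3 empty vector arrays, yet the log2 fold change of 0.29 (standard error 0.08, 95% interval 0.13 to 0.46) missed the threshold (adjusted p = 0.0539 in limma). The probe set passed in 5 of 15 alternative analyses, with adjusted p from 0.0233 to 0.279. The second RELA probe set (209878_s_at) had 7.57, 7.96 and 7.78 in SH3GL2 cells and 7.62, 7.74 and 7.44 in empty vector cells, with overlapping groups and a log2 fold change of 0.17 (95% interval -0.07 to 0.41).

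NFKB1 encodes p105, which is processed to p50, the usual partner of p65. Its log2 signals (209239_at) were 9.93, 9.77 and 10.03 in SH3GL2 cells and 9.78, 9.42 and 9.66 in empty vector cells. The groups touched, since the lowest SH3GL2 array lay just below the highest empty vector array. The log2 fold change was 0.29 (standard error 0.09, 95% interval 0.09 to 0.49), with an adjusted p of 0.123 in limma. NFKB1 passed in 2 of 15 alternatives, of which one left out SH3GL2 replicate 2 (adjusted p = 0.0488 in limma), with a range of 0.0323 to 0.462 over all of them.

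RELB encodes the subunit that pairs with p52 in the noncanonical pathway. Its log2 signals (205205_at) were 8.15, 8.05 and 8.41 in SH3GL2 cells and 8.11, 7.77 and 7.87 in empty vector cells. SH3GL2 replicate 3 stood highest, while SH3GL2 replicates 1 and 2 lay near empty vector replicate 1. The log2 fold change of 0.29 (standard error 0.11, 95% interval 0.05 to 0.52) did not pass (adjusted p = 0.203 in limma) and passed in 0 of 15 alternatives.

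NFKB2 encodes p100, which acts as an inhibitor until it is processed to p52. Its first probe set (207535_s_at) had 7.28, 7.15 and 7.36 in SH3GL2 cells and 7.14, 7.29 and 7.11 in empty vector cells, which overlapped, with a log2 fold change of 0.08 (95% interval -0.12 to 0.28). Its second (209636_at) had 6.15, 6.30 and 6.48 in SH3GL2 cells and 6.09, 5.96 and 6.27 in empty vector cells, which also overlapped, with a log2 fold change of 0.20 (95% interval -0.04 to 0.45). Only the first of these had a mean above the reference 95th percentile. The third (211524_at) had means of 4.17 in SH3GL2 cells and 4.09 in empty vector cells, below the reference median, and no change can be read from it.

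REL encodes c-Rel, a subunit best known from lymphocytes. Its first probe set (206036_s_at) had 5.95, 5.59 and 5.71 in SH3GL2 cells and 5.40, 5.65 and 5.64 in empty vector cells, with overlapping groups, a log2 fold change of 0.19 (95% interval -0.06 to 0.44) and both means below the reference 95th percentile. The second (206035_at) had means of 4.19 in SH3GL2 cells and 4.27 in empty vector cells, below the reference median, and a log2 fold change of -0.08, the only negative value among the 15. The intervals of RELA, NFKB1 and RELB, at the probe set with the highest mean, lay above 0 before adjustment, whereas those of NFKB2 and REL included 0.

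Of the 2 inhibitor genes of the IkB family, NFKBIA passed and NFKBIE did not. NFKBIA encodes IkB alpha, the inhibitor that is degraded and then made again when NF-kB is active. Its log2 signals (201502_s_at) were 12.11, 12.08 and 12.24 in SH3GL2 cells and 11.90, 11.85 and 11.91 in empty vector cells. The lowest SH3GL2 array lay above the highest empty vector array. NFKBIA rose in SH3GL2 cells, with means of 12.14 ± 0.09 in SH3GL2 cells and 11.89 ± 0.03 in empty vector cells (SD, n = 3 each) and a log2 fold change of 0.26 (standard error 0.05, 95% interval 0.14 to 0.37, 1.19-fold, adjusted p = 0.0151 in limma). The call was lost without SH3GL2 replicate 3 (log2 fold change 0.21, adjusted p = 0.107) and when empty vector replicate 2 was dropped (0.24, adjusted p = 0.0872). It was also lost with signals floored at the reference median, without an intensity trend in limma and in the analysis of variance, with adjusted p from 0.00656 to 0.201 over 15 alternatives.

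NFKBIE encodes IkB epsilon, a further inhibitor that holds dimers in the cytoplasm. Its log2 signals (203927_at) were 8.91, 8.76 and 8.95 in SH3GL2 cells and 8.75, 8.61 and 8.79 in empty vector cells. The groups overlapped, and within each group replicate 2 was the lowest. The means were 8.87 ± 0.10 in SH3GL2 cells and 8.72 ± 0.09 in empty vector cells (SD, n = 3 each), with a log2 fold change of 0.16 (95% interval -0.02 to 0.33) that did not pass (adjusted p = 0.376 in limma, 0 of 15 alternatives). Whether NFKBIA and NFKBIE differ in their change was not tested.

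Among the feedback and target genes, TNFAIP3 and TNFAIP2 were both higher in SH3GL2 cells. TNFAIP3 encodes A20, a ubiquitin-editing enzyme that shuts the pathway off upstream of the IkB kinase. Its first probe set (202644_s_at) had log2 signals of 10.22, 10.01 and 10.10 in SH3GL2 cells and 9.63, 9.72 and 9.63 in empty vector cells. The gap between the groups was wider than the range within either. The means were 10.11 ± 0.11 in SH3GL2 cells and 9.66 ± 0.05 in empty vector cells (SD, n = 3 each), a log2 fold change of 0.45 (standard error 0.07, 95% interval 0.30 to 0.60, 1.37-fold, adjusted p = 0.00194 in limma). This call was kept without each of the 6 arrays in turn (adjusted p = 0.000636 to 0.0139). It was lost with signals floored at the reference median (adjusted p = 0.0608) and in the analysis of variance (adjusted p = 0.132).

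The second TNFAIP3 probe set (202643_s_at) read the same gene with 8.87, 8.69 and 8.83 in SH3GL2 cells and 8.33, 8.45 and 8.45 in empty vector cells. Again the groups did not overlap. The means of 8.80 ± 0.09 in SH3GL2 cells and 8.41 ± 0.07 in empty vector cells (SD, n = 3 each) gave a log2 fold change of 0.39 (standard error 0.08, 95% interval 0.22 to 0.55, 1.31-fold, adjusted p = 0.0121 in limma). Its adjusted p was 0.0517 without SH3GL2 replicate 1, 0.0761 without SH3GL2 replicate 3 and 0.0564 without empty vector replicate 1, in a range of 0.00556 to 0.165 over 15 alternatives. TNFAIP3 was thus the only member gene called on every one of its probe sets among the members with more than 1.

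TNFAIP2 encodes a protein of membrane protrusions that was found as a gene induced by tumor necrosis factor. Its first probe set (202510_s_at) had 8.49, 8.36 and 8.77 in SH3GL2 cells and 7.96, 8.03 and 8.17 in empty vector cells. The groups did not overlap, and SH3GL2 replicate 3 stood highest. The means were 8.54 ± 0.21 in SH3GL2 cells and 8.05 ± 0.11 in empty vector cells (SD, n = 3 each), a log2 fold change of 0.49 (standard error 0.10, 95% interval 0.26 to 0.71, 1.40-fold, adjusted p = 0.0178 in limma). The call was lost when SH3GL2 replicate 3 was left out (log2 fold change 0.37, adjusted p = 0.0930), and likewise for empty vector replicates 1 (0.44, adjusted p = 0.0765) and 2 (0.48, adjusted p = 0.0734), in a range of 0.00431 to 0.289 over 15 alternatives. The second TNFAIP2 probe set (202509_s_at) had 6.34, 6.13 and 6.44 in SH3GL2 cells and 5.99, 6.25 and 5.83 in empty vector cells, with overlapping groups, both means below the reference 95th percentile and a log2 fold change of 0.28 (95% interval 0.02 to 0.54, adjusted p = 0.278 in limma).

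**Figure D2:**
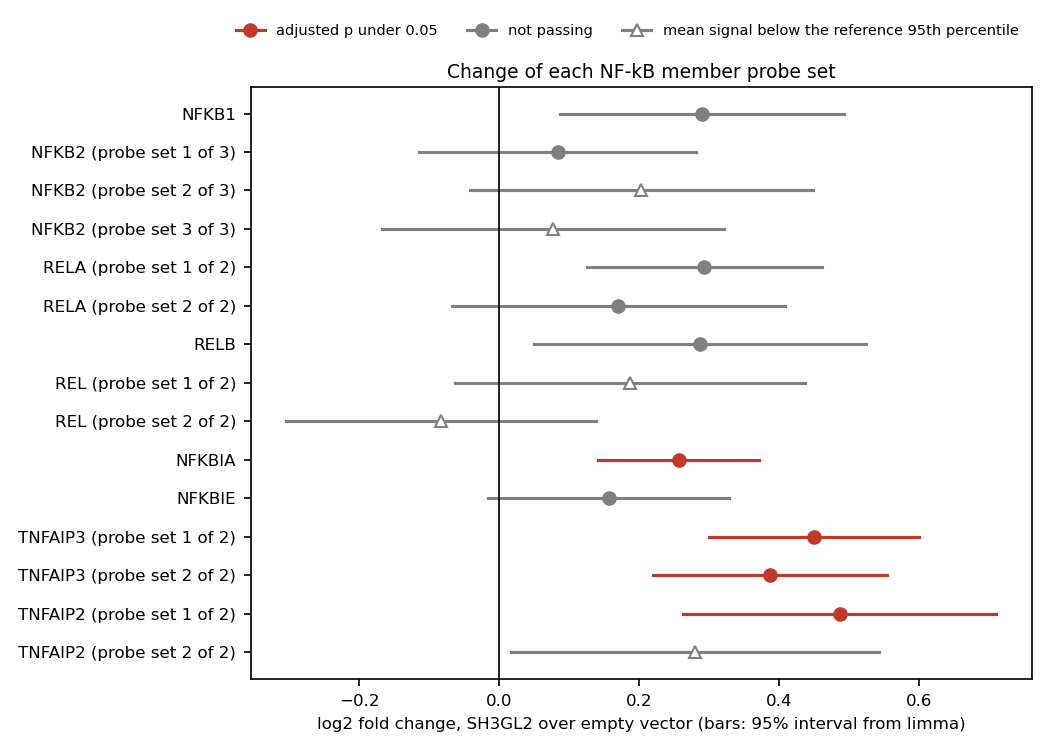
Log2 fold change of SH3GL2 over empty vector for each member probe set (points) with its 95% interval from limma (bars, not adjusted for multiple tests). Red marks the 4 probe sets with an adjusted p under 0.05 and open triangles mark means below the reference 95th percentile. Only the second REL probe set lies left of 0.

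The plot of fold changes sets the members side by side. The 3 widest shifts, 0.49, 0.45 and 0.39, belonged to TNFAIP2 and TNFAIP3, and the intervals of all 4 called probe sets overlapped those of RELA, NFKB1 and RELB. The difference between the called and the other members was not tested, and a missed threshold does not show that the subunit genes stayed level.

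**Figure D3:**
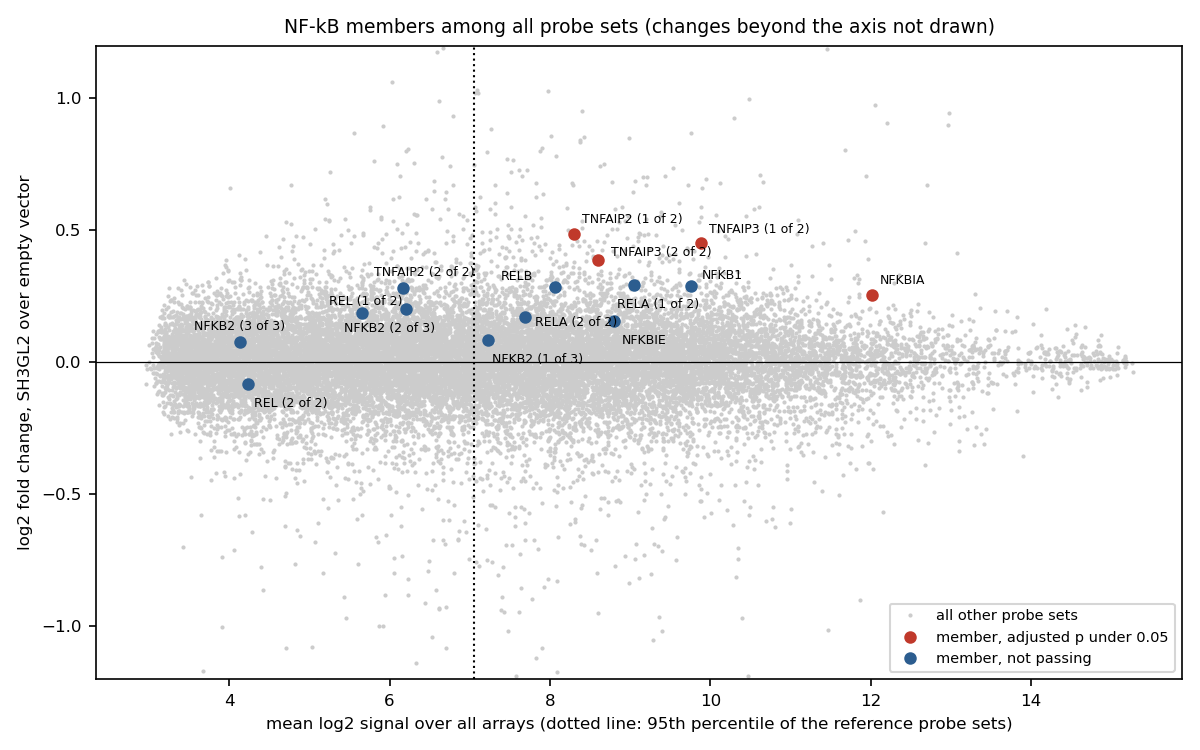
Log2 fold change of SH3GL2 over empty vector (vertical axis) against the mean log2 signal over all 6 arrays (horizontal axis) for all probe sets (grey) and the members (red, adjusted p under 0.05; blue, not passing). The dotted line is the reference 95th percentile of 7.05, and 35 probe sets beyond 1.2 on the vertical axis are not drawn. The 4 called members lie right of the line, as do 6 of the 11 others.

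The members were spread over most of the signal range, as the plot of change against signal shows. Of the 15 member probe sets, 10 had a mean above the reference 95th percentile and 2 had a mean below the reference median. All 4 called member probe sets were among those 10. Of all probe sets above that percentile, 3.25% were higher and 3.34% were lower.

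The arrays of a group were not equal in these genes. SH3GL2 replicate 3 was the highest of its group on 9 of the 15 member probe sets (60%), against 32.6% of all probe sets, and SH3GL2 replicate 2 was the lowest on 10 of 15 (66.7%), against 34.5% of all. The average log2 signal of the 9 member genes was 8.90, 8.78 and 8.98 on SH3GL2 replicates 1, 2 and 3 and 8.62, 8.58 and 8.64 on the empty vector replicates. Over the 5 subunit genes alone the averages were 8.07, 7.96 and 8.16 on the SH3GL2 arrays and 7.87, 7.79 and 7.84 on the empty vector arrays. Both averages lay higher on each SH3GL2 array than on each empty vector array. They are given as a description, since the members were chosen with results of these arrays known.

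**Figure D4:**
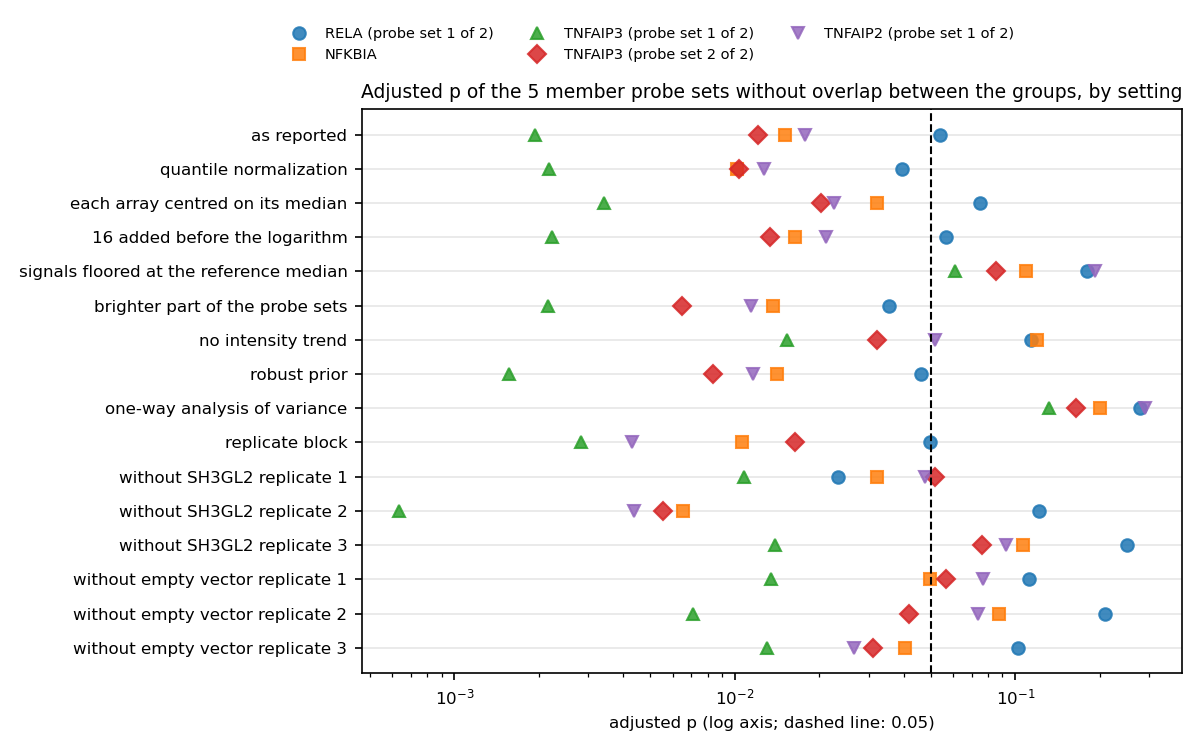
Adjusted p (log axis) of the 5 member probe sets whose groups did not overlap, in the analysis as reported and in each of 15 alternatives (rows). The dashed line is 0.05, and points left of it passed. The first TNFAIP3 probe set passed in 13 of 15 alternatives, the second TNFAIP3 probe set and NFKBIA in 10, the first TNFAIP2 probe set in 9 and the first RELA probe set in 5.

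How far each call rested on single arrays or on the model can be read from the plot of adjusted p by alternative. Without SH3GL2 replicate 3, 1 member probe set was called, the first of TNFAIP3, and the count of higher probe sets over the whole array was 184, against 441 with all arrays. When empty vector replicate 1 or 2 was left out, 2 member probe sets were called in each case, and 279 and 219 probe sets were higher over the whole array. The fall in calls was therefore not confined to the members.

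The genes that feed into NF-kB were counted next, on a list of 55 ligands, receptors, adaptors and kinases. Of 45 measured, 4 (8.89%) were higher, 1 (2.22%) was lower and 40 did not pass, with a median log2 fold change of 0.01. Over all genes 2.54% were higher and 2.36% were lower by this rule. At an unadjusted p under 0.05, 7 were higher and 4 were lower, beside 9.94% and 7.56% of all genes. In the analysis of variance 0 passed in either direction. TLR2, a receptor for bacterial lipoproteins, rose, with signals of 9.53, 9.36 and 9.65 in SH3GL2 cells and 8.83, 8.82 and 8.78 in empty vector cells, a log2 fold change of 0.70 (adjusted p = 0.000169 in limma). IL1A, encoding the cytokine interleukin 1 alpha, rose on 1 of its 2 probe sets, with 11.01, 10.34 and 10.92 in SH3GL2 cells and 9.78, 9.76 and 9.95 in empty vector cells, a log2 fold change of 0.93 (adjusted p = 0.00128 in limma). IL1B, encoding interleukin 1 beta, rose on both of its probe sets, with means of 7.92 ± 0.27 in SH3GL2 cells and 7.16 ± 0.06 in empty vector cells (SD, n = 3 each) on the one used and a log2 fold change of 0.77 (adjusted p = 0.00203 in limma). The groups did not overlap for any of these 3 genes, and SH3GL2 replicate 2 was the lowest of its group in each.

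TNFRSF1B, encoding a receptor for tumor necrosis factor, rose, with means of 7.73 ± 0.13 in SH3GL2 cells and 7.21 ± 0.15 in empty vector cells (SD, n = 3 each), a log2 fold change of 0.52 (adjusted p = 0.00903 in limma). TNFRSF21, encoding death receptor 6, fell on 1 of its 2 probe sets, with means of 8.13 ± 0.06 in SH3GL2 cells and 8.67 ± 0.16 in empty vector cells, a log2 fold change of -0.54 (adjusted p = 0.00318 in limma). TNFRSF1B lost its call when SH3GL2 replicate 3 or empty vector replicate 2 was left out (adjusted p = 0.0523 and 0.0509, in a range of 0.00556 to 0.213 over 15 alternatives). The genes of the IkB kinase, named here after their values were seen, did not pass. IKBKB, its main catalytic subunit, had a log2 fold change of 0.15 (95% interval -0.02 to 0.32), CHUK, its other catalytic subunit, had -0.10 (95% interval -0.27 to 0.07) and IKBKG, its scaffold, had -0.01 (95% interval -0.18 to 0.15).

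On a list of 31 other regulators of the pathway, 23 were measured. Of these 1 (4.35%) was higher, 0 were lower and 22 did not pass, with a median log2 fold change of 0.00. Over all genes 2.54% were higher and 2.36% were lower. At an unadjusted p under 0.05, 3 were higher and 1 was lower, beside 9.94% and 7.56% of all genes, and the analysis of variance called 0. The gene called was TNIP1, encoding ABIN1, which binds A20. Its signals were 11.17, 11.19 and 11.42 in SH3GL2 cells and 11.02, 10.85 and 10.93 in empty vector cells, with no overlap and a log2 fold change of 0.33 (adjusted p = 0.0227 in limma). TNIP1 lost its call without SH3GL2 replicate 3, empty vector replicate 2 or empty vector replicate 3 (adjusted p = 0.124, 0.118 and 0.0774, in a range of 0.0146 to 0.297 over 15 alternatives).

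Of 50 other genes known as NF-kB targets 46 were measured, and 16 were higher, 2 were lower and 28 did not pass, with a median log2 fold change of 0.19. At an unadjusted p under 0.05 the counts were 23 higher and 3 lower, and the analysis of variance called 1 higher and 0 lower, beside the shares of all genes given above for these rules. The list was chosen with earlier results of these data known, so its counts are only a description. Of the 16, 8 had means above the reference 95th percentile in both groups. The 6 with the smallest adjusted p were all chemokine genes, whose products attract leukocytes. CCL5 had the largest change of the 6, with signals of 8.67, 8.65 and 8.80 in SH3GL2 cells and 6.77, 6.67 and 6.60 in empty vector cells, a log2 fold change of 2.03 (adjusted p = 2.83e-08 in limma), and rose on both of its probe sets. CXCL8, encoding interleukin 8, had 12.31, 11.64 and 12.20 in SH3GL2 cells and 10.71, 10.94 and 10.94 in empty vector cells, a log2 fold change of 1.19 (adjusted p = 0.000169 in limma). The neutrophil chemokine genes CXCL2, CXCL3 and CXCL1 had log2 fold changes of 1.00, 0.78 and 0.78. CXCL10, a T cell chemokine gene, had the widest spread, with 6.94, 6.28 and 7.73 in SH3GL2 cells and 5.15, 5.24 and 5.28 in empty vector cells, a log2 fold change of 1.76 (adjusted p = 0.00114 in limma). The means of CXCL10 and CXCL1 lay below the reference 95th percentile in both groups, and that of CCL5 did so in empty vector cells, so the size of these changes is less certain.

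The 2 lower targets were KLF6, a zinc finger factor gene, and GADD45B, a stress response gene, both named after their values were seen. KLF6 fell on 2 of its 3 probe sets. The one used had means of 10.17 ± 0.07 in SH3GL2 cells and 10.51 ± 0.07 in empty vector cells (SD, n = 3 each), a log2 fold change of -0.34 (adjusted p = 0.00730 in limma). GADD45B fell on 2 of its 4 probe sets. The one used had means of 11.14 ± 0.09 in SH3GL2 cells and 11.41 ± 0.07 in empty vector cells, a log2 fold change of -0.27 (adjusted p = 0.0235 in limma). Of the targets, 8 were higher without SH3GL2 replicate 3 and 10 without empty vector replicate 1, while the count over all genes was 135 and 198 in these settings, against 304 with all arrays. The list medians stand beside a median of 0.02 over all 11963 genes.

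**Figure D5:**
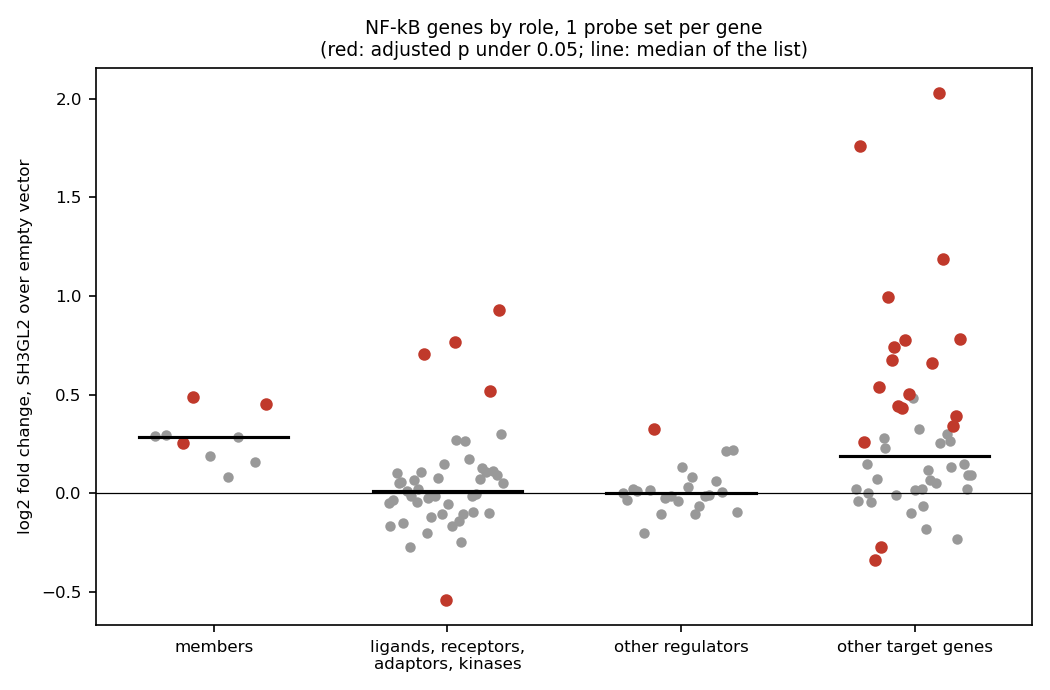
Log2 fold change of SH3GL2 over empty vector for each measured gene, at the probe set with the highest mean, in 4 groups by role. Red points passed at an adjusted p under 0.05, and each line is the median of its group. The medians were 0.29 for the 9 members, 0.01 for 45 ligands, receptors, adaptors and kinases, 0.00 for 23 other regulators and 0.19 for 46 other target genes.

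The plot by role shows higher calls for 3 of 9 members, 4 of 45 upstream genes, 1 of 23 regulators and 16 of 46 target genes, and no member below 0. Over all genes 2.54% were called higher. Single genes of the upstream list reached further from 0 than any member.

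The profile of the first TNFAIP3 probe set, the member with the smallest adjusted p, was compared with those of all other probe sets that carry 1 symbol and exceed the reference 95th percentile. The 5 most alike over the 6 arrays belonged to SLC39A8, a zinc and manganese transporter gene, COL4A1, a basement membrane collagen gene, EHD3, an endocytic recycling gene, TRAF5, an adaptor gene of tumor necrosis factor receptors, and CUL4A, a ubiquitin ligase scaffold gene, with Pearson r of 0.990, 0.985, 0.984, 0.983 and 0.983. The 6 points of each share the 2 groups, so that any probe set with a clear difference and little spread scores high. The log2 fold changes were 0.40 for SLC39A8, 0.50 for COL4A1 and 0.51 for EHD3, which passed. TRAF5 and CUL4A had 0.27 and 0.17 and did not pass (adjusted p = 0.0916 and 0.147 in limma).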

How the data were processed

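RNA of SUM159 cells was hybridized to 6 arrays, 3 of cells stably transfected with SH3GL2 and 3 of cells with empty vector (GeneChip human genome arrays). Per the methods the authors extracted total RNA with Trizol and MagMAX and analysed the scans with GCOS software, and the submitters' notes name MAS5 with no version. The deposited values are log2 signals, recognised from their range, and whether and how the authors scaled the arrays to each other is not given in the sources used here. Any such scaling would remove a shift shared by all probe sets.

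The values were used as deposited. The table held 22277 probe sets, and its 62 Affymetrix controls were not tested. By the platform annotation 19064 of the tested probe sets carry 1 symbol, 1043 carry several and 2108 carry none. Gene counts used, for each gene, the probe set with 1 symbol and the highest mean. The two-sided moderated test of limma 3.58.1 in R 4.3.3 (lmFit, then eBayes with a trend on intensity) was run over all 22215 probe sets, and p-values adjusted by Benjamini-Hochberg over all of them were called under 0.05. Standard errors and 95% intervals are those of limma, and the SD is over 3 arrays. With 3 arrays per group an exact permutation test cannot go below p = 0.1, so none is given. The number of arrays limits the precision, and 49.4% of probe sets had a mean above the reference 95th percentile. The fits were tested on simulated data before use. There limma recovered 8% of 1.2-fold changes, 68% of 1.5-fold changes and 100% of 2-fold changes, with 50 changed probe sets of each size. Changes near 1.2-fold were thus mostly missed.

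The methods name no test for the arrays. Their statistics section names an analysis of variance for the study as a whole, which was run as an alternative. Further alternatives changed the scale (quantile normalization, arrays centred on their medians, 16 added to the linear signal, signals floored at the reference median), the filter (only the brighter probe sets) or the model (no trend, a robust prior, a replicate block). The rest were leaving out each array in turn, an adjusted p under 0.01, at least a 1.5-fold change, and a fit on gene averages over probe sets.

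The members and lists were chosen with earlier results of these data known. Named were all members, up to 6 genes per list with the smallest adjusted p under 0.05, the 5 probe sets most like the leading member, and SH3GL2, with exceptions stated beside their values. Shared probe sets with a symbol from the lists were named outside this rule. Promoter sequences are RefSeq's on GRCh38.p14. Python 3.11.15 and matplotlib 3.10.9 drew the figures.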

Additional observations from a re-analysis of the deposited data

How the results depend on the processing

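Over 218 alternative values of the member log2 fold changes, 192 kept their direction and their side of the threshold, 18 lost and 7 gained a call, and 1 changed sign. That was the third NFKB2 probe set, at -0.0083 without empty vector replicate 1 (-0.0083 to 0.19 without each array). Only the 4 called member probe sets could lose a call, and each did so in 2 to 6 of its 15 alternatives. For the list genes named and SH3GL2, 164 of 191 were the same, 26 lost a call and 1 changed sign, that of SH3GL2 at -0.0033 without SH3GL2 replicate 2 (-0.0033 to 0.087 without each array). Quantile normalization and centring on the median kept the 4 called member probe sets, CCL5 passed in 15 of 15 alternatives, and no setting moved the median of all probe sets by 0.1.

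With signals floored at the reference median, 0 member probe sets and 0 member genes were higher, against 4 and 3 as reported. The log2 fold changes of those 4 probe sets were the same with and without the floor. Their adjusted p in limma was 0.0608 to 0.192 with it. The counts under that floor were 1 higher and 0 lower upstream genes, 0 higher regulators, and 2 higher and 0 lower targets. Over all genes 93 were higher with that floor, 184 without an intensity trend and 20 in the analysis of variance, against 304 as reported. The third NFKB2 and second REL probe sets then lay at the floor in both groups and gave no value. Without an intensity trend, 2 member probe sets, 1 member gene, 0 regulators and 9 targets were higher and 1 target was lower. The analysis of variance called 0 member probe sets, 0 member genes, 0 upstream genes in either direction, 0 regulators, 1 higher target and 0 lower targets. At an adjusted p under 0.01, 1 member probe set, 1 member gene, 0 regulators and 9 targets were higher and 1 target was lower. Calls over all genes were not counted at that threshold, so whether the fall was particular to these genes cannot be told. The causes were not tested. Without each array in turn, 1 to 5 member probe sets, 1 to 4 member genes, 3 to 5 upstream genes, 0 to 1 regulators and 8 to 16 targets were higher, and 1 to 2 upstream genes and 1 to 2 targets were lower. In those fits 184 to 376 probe sets and 135 to 275 genes were higher over the whole array, against 441 and 304 as reported. Lower genes over the whole array numbered 173 to 257, against 282 as reported. Of all probe sets 4.17% were called, and 1.14% with a change of at least 1.5-fold as well. The called member probe sets changed by 1.19-fold to 1.40-fold, so all of them fell short of 1.5-fold. Among the targets, CCL5 (4.07-fold) and CXCL8 (2.28-fold) exceeded it.

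Arrays with the same replicate number had residual correlations of -0.01, 0.13 and 0.15, and those with different numbers -0.16 to 0.02. Since one was under 0.1, the numbers were not taken as pairs, although for 4 of 6 arrays the best match was the same number, a hint from the data and not from the design. With the replicate number as a block, 5 member genes were higher, NFKB1 (adjusted p = 0.0323) and RELA (adjusted p = 0.0497) among them, and 2 upstream genes were lower. Over all genes 357 were higher and 334 were lower with that block, against 304 and 282 as reported. Signals near the reference level limit what the dim NFKB2, REL and TNFAIP2 probe sets can show.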

Other observations

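Some genes of the NF-kB lists have only probe sets that carry several symbols and were left out of the gene counts. Every shared probe set with a symbol from those lists is given here. Over all probe sets 1.99% were higher and 2.18% were lower. SOD2, encoding the mitochondrial superoxide dismutase, shares its 4 probe sets with SOD2-OT1, and all 4 were higher in SH3GL2 cells, by 2.83-fold, 1.59-fold, 1.61-fold and 1.51-fold (adjusted p = 3.98e-05, 2.03e-05, 2.18e-05 and 0.00137 in limma). On the brightest of them the signals were 12.94, 13.16 and 13.02 in SH3GL2 cells and 12.32, 12.43 and 12.35 in empty vector cells. The acute phase genes SAA1 and SAA2 share 2 probe sets, 1 of them also with the read-through SAA2-SAA4, and both rose by 0.71 log2 units (adjusted p = 0.000169 and 6.77e-05 in limma). The probe set of ZC3H12A, a ribonuclease gene that limits cytokine transcripts, also carries a microRNA symbol and had signals of 7.40, 7.46 and 7.65 in SH3GL2 cells and 6.88, 7.23 and 6.92 in empty vector cells, a log2 fold change of 0.49 (adjusted p = 0.0221 in limma). BCL3, encoding an atypical IkB protein, shares 2 probe sets with a microRNA, which had log2 fold changes of -0.09 and 0.06 and did not pass. A probe set shared by RNF31 and IRF9 had -0.13 and did not pass (adjusted p = 0.594 in limma). Nor did a probe set shared by USP4, C3orf62 and a microRNA, at 0.06 (adjusted p = 0.781 in limma). USP4 was in the gene counts through a probe set of its own. Which of the transcripts on a shared probe set was read was not tested.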
